A study of Mus musculus with 8 samples.

Results

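T and natural killer (NK) cell genes were followed in RNA sequencing libraries of mouse B cells. The genes were a given list of 10, found by mouse symbol among the 37583 gene identifiers of the count tables, and all 10 were present. Of these, 6 are taken here as T or NK genes (Ncr1, Klrb1c, Gzma, Prf1, Cd3e and Cd8a) and 4 as genes that B cells can also express (Gzmb, Il7r, Lck and Fasl). The TLR group has 2 libraries of C57BL/6 splenic B cells cultured with CpG ODN1668, an oligonucleotide that engages the receptor TLR9, for 3 days and given LPS, PMA and ionomycin for the final 5 hours. The CpG group has 3 libraries of cells given CpG ODN1668 alone for 3 days, and the naive group has 3 libraries labelled as naive B cells, for which no stimulus is named. The labels call both stimulated preparations Bregs, regulatory B cells. They do not give the method of B cell isolation, nor which other spleen cells remained. Whether replicates came from different animals or cultures is not stated either, and the p-values therefore refer to variation between libraries, which may be technical.

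NK cells and cytotoxic T cells kill through granules: perforin opens the target membrane and granzymes, serine proteases, enter and start cell death. T cells recognise antigen through a T cell receptor that signals through the CD3 chains and the kinase LCK, while NK cells use germline-encoded receptors such as NKp46, the product of Ncr1. A spleen suspension holds these cells next to B cells, so their transcripts are often read as a measure of other cells in a B cell preparation. Lck is also known in B-1 cells, Il7r in developing B cells, and Fasl in stimulated B cells. Gzmb is placed with these genes by the grouping used here.

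The start regions of 6 windows are shown because the genes behind them took different courses across the groups: Ncr1, Gzma and Gzmb had no count in any stimulated library, Il7r was highest in CpG cells, and Lck, with 2 listed start sites, was at a like level in CpG and naive cells. Sequences are from RefSeq, build GRCm38.p6, given 5′ to 3′ on the gene's strand, from 250 bases before the start to 50 after it. Capitals mark the hexamer TGTGGT or its reverse complement ACCACA, the letters of the core that RUNX transcription factors bind. Ncr1 lies on the plus strand at chr7:4337465-4337764. Gzma lies on the minus strand at chr13:113100932-113101231, and Gzmb on the minus strand at chr14:56262285-56262584. Il7r lies on the minus strand at chr15:9529827-9530126. Both Lck windows are on the minus strand, window 1 at chr4:129573592-129573891 and window 2 at chr4:129558323-129558622.
Ncr1: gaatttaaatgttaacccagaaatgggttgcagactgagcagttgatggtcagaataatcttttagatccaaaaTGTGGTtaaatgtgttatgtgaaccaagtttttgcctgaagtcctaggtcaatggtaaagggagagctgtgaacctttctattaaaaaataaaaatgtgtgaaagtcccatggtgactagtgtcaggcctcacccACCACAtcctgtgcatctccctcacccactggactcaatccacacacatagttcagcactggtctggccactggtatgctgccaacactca
Gzma: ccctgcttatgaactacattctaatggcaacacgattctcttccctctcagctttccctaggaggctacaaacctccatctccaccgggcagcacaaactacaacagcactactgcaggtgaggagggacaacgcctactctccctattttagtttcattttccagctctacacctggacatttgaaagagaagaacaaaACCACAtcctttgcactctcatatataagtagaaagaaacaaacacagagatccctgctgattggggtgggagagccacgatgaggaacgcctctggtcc
Gzmb: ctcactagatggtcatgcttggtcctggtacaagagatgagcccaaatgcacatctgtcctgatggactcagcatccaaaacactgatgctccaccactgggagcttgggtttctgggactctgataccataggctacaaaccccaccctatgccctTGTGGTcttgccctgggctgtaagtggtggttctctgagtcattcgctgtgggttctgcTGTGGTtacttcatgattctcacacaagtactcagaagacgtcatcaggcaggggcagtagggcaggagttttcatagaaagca
Il7r: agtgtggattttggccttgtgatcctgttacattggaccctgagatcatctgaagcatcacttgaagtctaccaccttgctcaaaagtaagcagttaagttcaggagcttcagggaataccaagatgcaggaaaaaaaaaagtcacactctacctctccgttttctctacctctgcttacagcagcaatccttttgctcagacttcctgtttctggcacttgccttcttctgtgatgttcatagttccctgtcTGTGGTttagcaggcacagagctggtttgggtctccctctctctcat
Lck window 1: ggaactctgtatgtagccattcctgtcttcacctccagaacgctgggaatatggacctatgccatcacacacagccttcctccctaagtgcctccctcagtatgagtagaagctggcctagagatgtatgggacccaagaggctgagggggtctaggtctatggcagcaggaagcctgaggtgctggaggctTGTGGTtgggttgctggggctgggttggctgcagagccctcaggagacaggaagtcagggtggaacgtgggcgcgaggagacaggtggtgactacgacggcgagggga
Lck window 2: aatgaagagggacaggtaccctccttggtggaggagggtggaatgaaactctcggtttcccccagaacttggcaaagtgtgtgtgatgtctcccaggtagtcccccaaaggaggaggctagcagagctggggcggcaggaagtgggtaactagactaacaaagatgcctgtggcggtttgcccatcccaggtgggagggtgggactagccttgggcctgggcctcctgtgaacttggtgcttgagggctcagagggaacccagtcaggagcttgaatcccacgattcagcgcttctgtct

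All 10 genes matched the RefSeq table, with 12 windows in all. The RUNX hexamer was in a window of 7 of the 10 genes, against 16.8% of the 32851 windows of the same 300-base length over all genes. Cd3e, Cd8a and Fasl had no match, and within Lck only window 1 had one. The T-box letters GGTGTG (reverse CACACC) were in a window of 1 gene, Fasl, against 19% of all windows. The ETS letters AGGAAG (reverse CTTCCT) were in windows of 6 genes against 35.4% of all windows, and the NFAT letters TGGAAA (reverse TTTCCA) in windows of 2 genes against 21.4%. No RUNX match overlapped a T-box match. These 4 motifs of 6 letters were chosen with the sequences known, both strands were searched, and a match is a description of letters in this window. Genes with the hexamer took different courses across the groups: Ncr1 was at 0 in all stimulated libraries and Il7r was highest in CpG cells.

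Gene totals were 15804311 to 20069272 counts per library, and a single count equalled 0.0498 to 0.0633 CPM (counts scaled to a common library size, with TMM factors). The 6 B cell identity genes checked against the label (Ms4a1, Cd79a, Cd79b, Pax5, Cd22 and Ebf1) summed to 2384 and 2476 CPM in TLR libraries, 7274 to 10763 CPM in CpG libraries and 8039 to 8506 CPM in naive libraries. The 6 T or NK genes summed to 1.08 and 1.65 CPM in TLR libraries, 1.68 to 2.99 CPM in CpG libraries and 9.62 to 50.1 CPM in naive libraries. The B cell identity sum was thus far above that of the T or NK genes in all 8 libraries, and the T or NK sum was highest in the naive ones. In RNA from whole preparations, fewer cells of a type and less RNA per cell cannot be told apart. The first replicate in each group has the library prefix RCa1 and all others RCa18; the labels do not explain these prefixes. Lines not uniquely aligned made up 50.2% in TLR, 47.1% in CpG and 37.5% in naive replicate 1, and 14.7% to 21.5% in the RCa18 libraries.

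**Figure D1:**
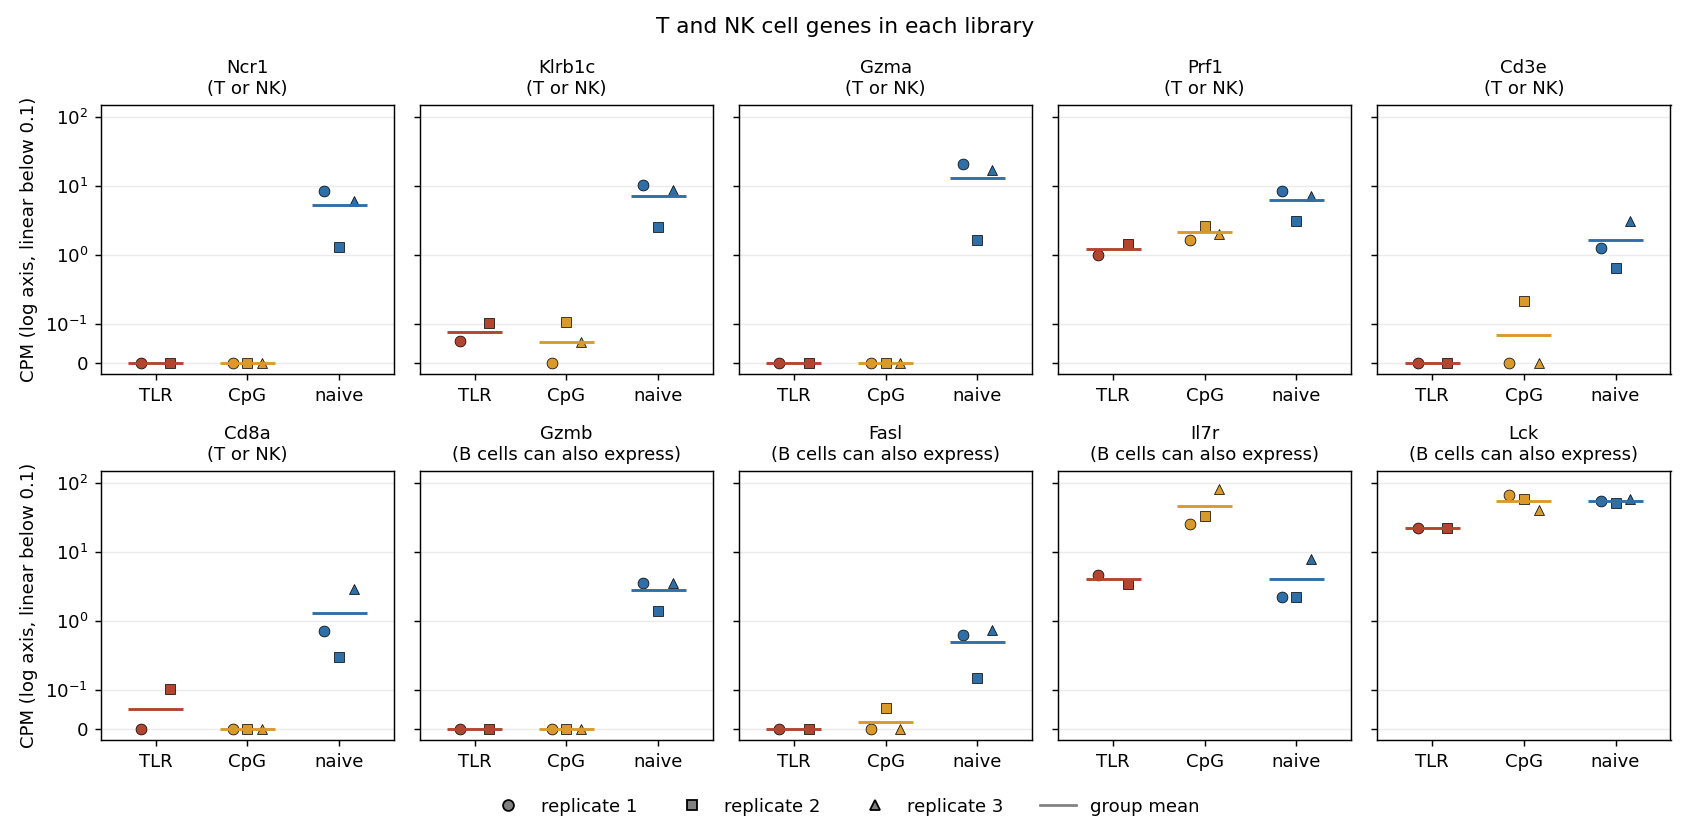
Level of each of the 10 genes in every library, in CPM on an axis that is logarithmic above 0.1 and linear below it, for TLR, CpG and naive groups from left to right. Points are libraries and lines are group means; 7 of the genes lie at or near 0 in all stimulated libraries, Prf1 keeps a low level, and Il7r and Lck follow other courses.

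In the comparison of CpG with naive cells, which sets 3 days of CpG culture against cells with no named culture, 8 of the 10 genes were lower, 1 was higher (Il7r) and 1 was not called (Lck). Among all 13964 genes tested, 21.9% were called lower and 23.5% higher at an adjusted p below 0.05 (edgeR's quasi-likelihood test, Benjamini-Hochberg). All 6 T or NK genes were among the lower ones, together with Gzmb and Fasl. The groups did not overlap for 9 genes, the exception being Lck. The share of all tested genes without overlap was not computed, so this number is a description. All 10 genes passed the filter on low counts. Of these, 7 (Ncr1, Klrb1c, Gzma, Gzmb, Cd3e, Cd8a and Fasl) had at most 4 counts in any stimulated library and passed through the naive libraries. Their count is therefore a description, and so are their adjusted p-values against naive cells given below. Culture and CpG cannot be told apart in this design.

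Ncr1, which encodes the activating NK receptor NKp46, had 0 and 0 counts in TLR libraries, 0, 0 and 0 in CpG libraries, and 161, 26 and 116 in naive libraries. The stimulated libraries were all at 0 and every naive library had counts, with replicate 2 lowest. Against 3 counts over the group, Ncr1 was at least 91.0-fold lower in CpG than in naive cells (adjusted p = 0.00156) and at least 64.1-fold lower in TLR than in naive cells (adjusted p = 0.00199).

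Klrb1c encodes NK1.1, the lectin-like receptor by which NK cells of C57BL/6 mice are usually stained. It had 1 and 2 counts in TLR libraries, 0, 2 and 1 in CpG libraries, and 199, 51 and 170 in naive libraries. The groups were far apart, and again naive replicate 2 was lowest. From counts, Klrb1c was 126-fold lower in CpG than in naive cells (95% exact counting interval 42.9 to 614, adjusted p = 0.000116). It was 88.9-fold lower in TLR than in naive cells (interval 30.2 to 433, adjusted p = 0.000179). Counting intervals and bounds cover counting error alone.

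Gzma encodes granzyme A, a trypsin-like granule protease of NK and T cells. It had 0 and 0 counts in TLR libraries, 0, 0 and 0 in CpG libraries, and 404, 33 and 321 in naive libraries. No stimulated library had a read, while the naive libraries differed widely among themselves. Gzma was at least 228-fold lower in CpG than in naive cells (adjusted p = 0.00242) and at least 160.4-fold lower in TLR than in naive cells (adjusted p = 0.00326).

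Prf1, the gene of perforin, behaved differently in that reads remained in every stimulated library. It had 18 and 28 counts in TLR libraries, 26, 50 and 37 in CpG libraries, and 160, 63 and 135 in naive libraries. Its level averaged 1.23 ± 0.302 CPM in TLR cells (SD, n = 2), 2.12 ± 0.505 CPM in CpG cells and 6.18 ± 2.70 CPM in naive cells (SD, n = 3 each). The naive libraries lay above all stimulated ones, and the TLR libraries below all CpG ones. Prf1 fell by 1.53 ± 0.39 (SE) on the log2 scale in CpG against naive cells (adjusted p = 0.0104) and by 2.32 ± 0.48 in TLR against naive cells (adjusted p = 0.00209). TLR cells held 19.9% and CpG cells 34.4% of the mean naive level, whereas for Klrb1c the same shares were 1.10% in TLR and 0.741% in CpG cells. The Klrb1c shares rest on 3 counts in each group. They are not read as measured levels or as a difference between TLR and CpG cells. With the libraries of prefix RCa18 alone, the CpG against naive change of Prf1 was -1.12 and was no longer called (adjusted p = 0.0865).

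Cd3e encodes the epsilon chain of the CD3 complex, which all T cells carry. It had 0 and 0 counts in TLR libraries, 0, 4 and 0 in CpG libraries, and 24, 13 and 59 in naive libraries. All 4 CpG counts came from replicate 2, and naive replicate 3 was highest. Cd3e fell by 4.34 ± 1.03 (SE) on the log2 scale in CpG against naive cells (adjusted p = 0.00863). Without naive replicate 3 this change was -3.55 (adjusted p = 0.0308), and without CpG replicate 2 the remaining CpG libraries were at 0. In TLR cells it was at least 20.3-fold lower than in naive cells (adjusted p = 0.00450), and at least 11.7-fold lower without naive replicate 3.

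Cd8a encodes the alpha chain of CD8, found on cytotoxic T cells and also on one type of mouse dendritic cell. It had 0 and 2 counts in TLR libraries, 0, 0 and 0 in CpG libraries, and 14, 6 and 55 in naive libraries. Naive replicate 3 held most of its reads. Cd8a was at least 22.5-fold lower in CpG than in naive cells (adjusted p = 0.00824), and at least 8.94-fold lower without naive replicate 3 (adjusted p = 0.0175). In TLR against naive cells the ratio of counts was 23.8-fold lower (95% exact counting interval 6.37 to 200.2, adjusted p = 0.0250). This call was lost without naive replicate 3 (9.46-fold lower, interval 2.30 to 83.4, adjusted p = 0.0633). Leaving out either TLR replicate leaves a single TLR library, so no call is read from those fits. Without TLR replicate 1 the log2 difference was -3.57, and without TLR replicate 2 the remaining TLR library was at 0. Of the 8 CD8+ dendritic cell markers, 4 were lower and 1 higher in CpG than in naive cells. Clec9a, a marker of that cell, had 0 and 0 CPM in TLR, 0.193, 0 and 0 CPM in CpG and 4.38, 1.95 and 1.88 CPM in naive libraries. Clec9a passed the filter through the naive libraries, and of the other 7 markers 3 were lower and 1 higher. Xcr1, another marker of that cell, took a different course, with 0.990 ± 0.279 CPM in TLR (n = 2), 1.65 ± 0.590 CPM in CpG and 1.03 ± 0.261 CPM in naive cells (n = 3 each), and was not called in any comparison. Their part in the Cd8a result was not tested.

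Rearranging T cell receptor genes gave a separate view of T cell reads. Over the 148 T cell receptor segments and constant regions in the files, of which 60 had a count, the sums were 6 and 5 counts in TLR libraries, 6, 12 and 4 in CpG libraries, and 175, 107 and 308 in naive libraries. Naive replicate 3 was highest and replicate 2 lowest, as for Cd3e and Cd8a. No test was made on these sums.

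Gzmb, the gene of granzyme B, and Fasl, the gene of the death ligand that triggers FAS, were grouped here with genes that B cells can also express. Gzmb had 0 and 0 counts in TLR libraries, 0, 0 and 0 in CpG libraries, and 68, 28 and 69 in naive libraries. Gzmb was at least 49.6-fold lower in CpG than in naive cells (adjusted p = 0.000658) and at least 34.9-fold lower in TLR than in naive cells (adjusted p = 0.000783). No stimulated library had a Gzmb read, and its naive level was lowest in replicate 2, as for the NK genes and also Cd3e and Cd8a. It was highest in replicate 3 by a small margin, at 3.60 CPM against 3.54 CPM in replicate 1.

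Fasl had 0 and 0 counts in TLR libraries, 0, 1 and 0 in CpG libraries, and 12, 3 and 14 in naive libraries. The groups did not overlap, but the naive level was low and replicate 2 was at 3 counts. The ratio of counts was 26.1-fold lower in CpG than in naive cells (95% exact counting interval 4.33 to 1067, adjusted p = 0.0127). In TLR cells Fasl was at least 6.14-fold lower than in naive cells (adjusted p = 0.00904). With the RCa18 libraries alone Fasl was not called in CpG against naive cells (adjusted p = 0.0734).

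Il7r encodes the alpha chain of the interleukin-7 receptor, which T cells, innate lymphoid cells and early B cells carry. It had 82 and 67 counts in TLR libraries, 392, 615 and 1513 in CpG libraries, and 43, 45 and 150 in naive libraries. Its levels were 4.64 and 3.46 CPM in TLR, 25.3, 32.9 and 82.6 CPM in CpG, and 2.24, 2.25 and 7.83 CPM in naive libraries. Every CpG library lay above every other library, and replicate 3 was highest in both the CpG and the naive group. Il7r rose by 3.51 ± 0.58 (SE) on the log2 scale in CpG against naive cells, 11.4-fold (adjusted p = 0.000987). This value was 4.38 without naive replicate 3 and 2.82 without CpG replicate 3, and it was called in both cases. In TLR against naive cells the difference was -0.02 ± 0.65 and was not called (adjusted p = 0.981), with TLR libraries inside the naive range; it was 0.85 without naive replicate 3 (adjusted p = 0.224).

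Lck encodes the Src family kinase that starts T cell receptor signalling. It had 387 and 435 counts in TLR libraries, 1036, 1097 and 739 in CpG libraries, and 1044, 1036 and 1103 in naive libraries. Its levels were 21.9 and 22.5 CPM in TLR, 66.8, 58.6 and 40.3 CPM in CpG, and 54.4, 51.9 and 57.6 CPM in naive libraries. The naive libraries were close together and lay inside the CpG range, while both TLR libraries lay below all others. The difference between CpG and naive cells was 0.02 ± 0.17 on the log2 scale and was not called (adjusted p = 0.947). Lck fell by 1.30 ± 0.20 in TLR against naive cells (adjusted p = 0.000325).

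**Figure D2:**
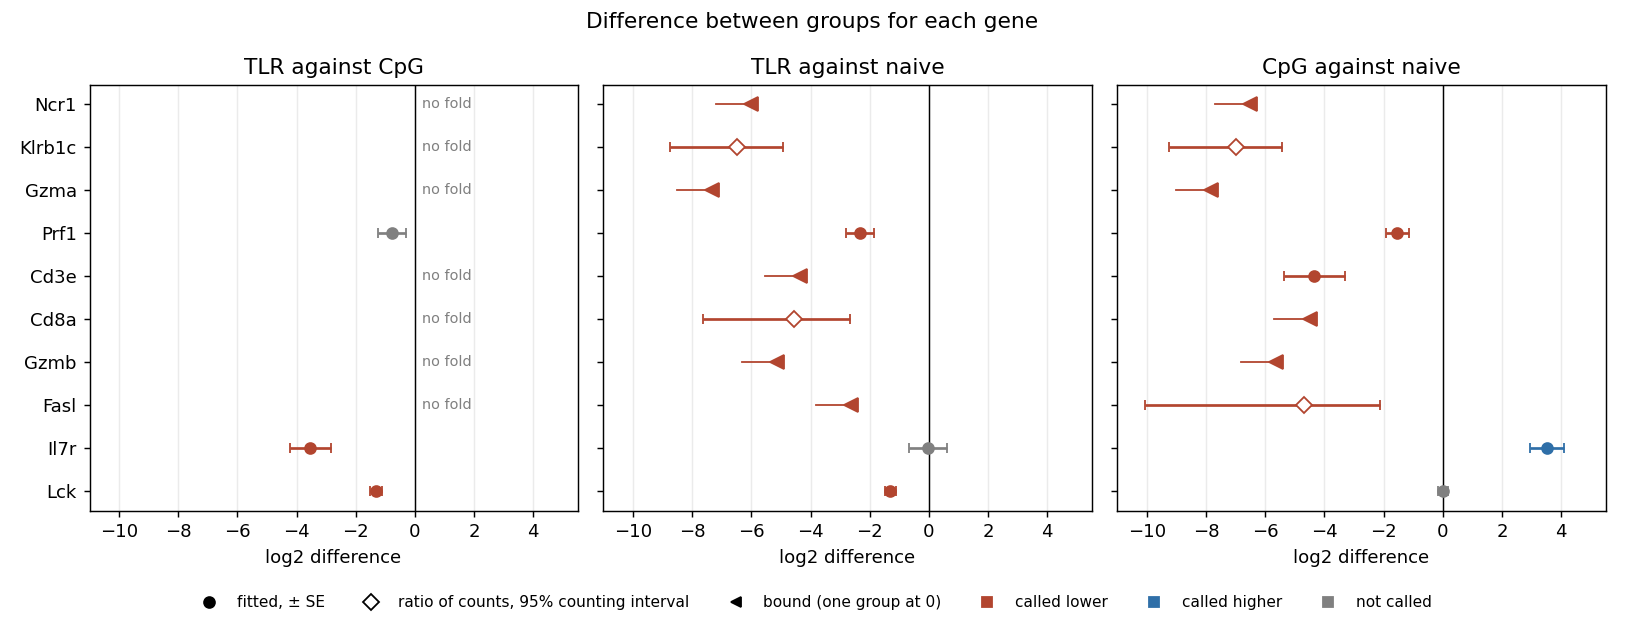
Log2 difference for each gene in the 3 comparisons, with filled circles for fitted changes (bars are SE), open diamonds for ratios of counts (bars are 95% counting intervals) and triangles for bounds where 1 group was at 0. Il7r lies at 3.51 in CpG against naive cells and at -3.53 in TLR against CpG cells, while the T or NK genes lie left of 0 in both comparisons with naive cells.

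In TLR against naive cells, 9 of the 10 genes were lower, none was higher and Il7r was not called, against 29.7% of all tested genes called lower and 31.6% called higher. The 9 include the same 7 genes that passed the filter through the naive libraries, so this count too is a description. Of the other 3 genes, 2 were lower. Both comparisons with naive cells share the naive libraries. In the pair of RCa1 libraries, the genes called in each comparison with naive cells all had the same direction, 9 in each. The groups did not overlap for any of these genes, so any pair of libraries had to show this direction. It is therefore no separate evidence. With the RCa18 libraries alone, 7 genes were called in CpG against naive cells, where Prf1 and Fasl were lost. That fit holds a single TLR library, so no calls are read from it for TLR cells.

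The comparison of TLR with CpG cells shows the 5 hours with LPS, PMA and ionomycin, agents that were given together and cannot be told apart. Only 2 of the 10 genes were called, Il7r and Lck, both lower, against 19.8% of all tested genes called lower and 19% called higher. Il7r fell by 3.53 ± 0.69 (SE) on the log2 scale (adjusted p = 0.00284), and by 2.84 without CpG replicate 3. Lck fell by 1.32 ± 0.20 (adjusted p = 0.000668). Prf1 was 0.78 ± 0.47 lower on the same scale and was not called (adjusted p = 0.217), although its 2 TLR libraries lay below the 3 CpG libraries. Of the other 7 genes, 6 had too few counts in both groups for a fold change, and Cd3e, with 0 counts in TLR and 4 in CpG libraries, was too close to the 3-count floor to give a usable bound and was not called (adjusted p = 0.296). The 6 B cell identity genes also fell in TLR against CpG cells, 6 of 6, with a median of -1.44 on the log2 scale against -0.02 over all tested genes. Their part in the Lck and Il7r results was not tested.

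The summed levels of the T or NK genes and of those that B cells can also express are set out side by side. Without Prf1, the T or NK genes summed to 0.0566 and 0.207 CPM in TLR, 0, 0.321 and 0.0546 CPM in CpG, and 41.8, 6.46 and 37.6 CPM in naive libraries. The 4 genes that B cells can also express summed to 26.6 and 25.9 CPM in TLR, 92.1, 91.5 and 123 CPM in CpG, and 60.8, 55.7 and 69.7 CPM in naive libraries. Il7r and Lck made up nearly all of the second sum, while Gzmb and Fasl were at or near 0 in the stimulated libraries as the first set was, so neither level nor course separates the sets gene by gene. No p is given for these sums.

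Set per kilobase of exon, the naive levels ran from Lck (18.6 CPM per kb) and Gzma (13.1) through Ncr1 (3.41), Klrb1c (2.45), Prf1 (2.39) and Gzmb (1.98) to Il7r (0.881), Cd3e (0.407), Cd8a (0.358) and Fasl (0.259). The SDs over naive libraries were 0.973 CPM per kb for Lck, 10.1 for Gzma, 2.34 for Ncr1, 1.40 for Klrb1c, 1.04 for Prf1 and 0.872 for Gzmb, so neighbours from Ncr1 to Gzmb did not differ beyond their spread. Gzma and Lck likewise did not. Il7r (SD 0.691), Cd3e (0.310), Cd8a (0.379) and Fasl (0.160) also overlapped their neighbours within that spread. Lck was 45.8 times Cd3e per kb in naive cells. The ratio was 40.9 without naive replicate 1, 36.0 without replicate 2 and 77.9 without replicate 3, where Cd3e was highest. In CpG cells Lck averaged 18.9 and Il7r 10.1 CPM per kb, and in TLR cells Lck averaged 7.57 and Il7r 0.869 CPM per kb. Exon lengths are from GENCODE M21 on GRCm38, another build than the files' mm9.

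The 3 naive libraries differed among themselves in a way that set NK genes apart from T genes. All 4 NK genes were highest in naive replicate 1 and lowest in replicate 2, with replicate 1 over replicate 2 at 12.7-fold for Gzma, 6.44-fold for Ncr1, 4.06-fold for Klrb1c and 2.64-fold for Prf1. Their replicate 3 was nearer, at 0.796 (Gzma), 0.722 (Ncr1), 0.856 (Klrb1c) and 0.846 (Prf1) times the level of replicate 1. Cd3e and Cd8a were highest in replicate 3, at 2.46 and 3.94 times their level in replicate 1, and lowest in replicate 2. The ratio of Gzma to Prf1 counts was 2.53, 0.524 and 2.38 in naive replicates 1 to 3, while Gzmb to Prf1 was 0.425, 0.444 and 0.511. Il7r in replicate 3 was at 3.50 times its level in replicate 1, and so also highest there. Lck spanned only 1.11-fold over the naive libraries and did not follow the T genes there. Naive replicate 1 was also the one naive library of prefix RCa1, with 37.5% of its lines not uniquely aligned, against 15.1% in replicate 2 and 14.7% in replicate 3; the part of this in the NK gene order was not tested.

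**Figure D3:**
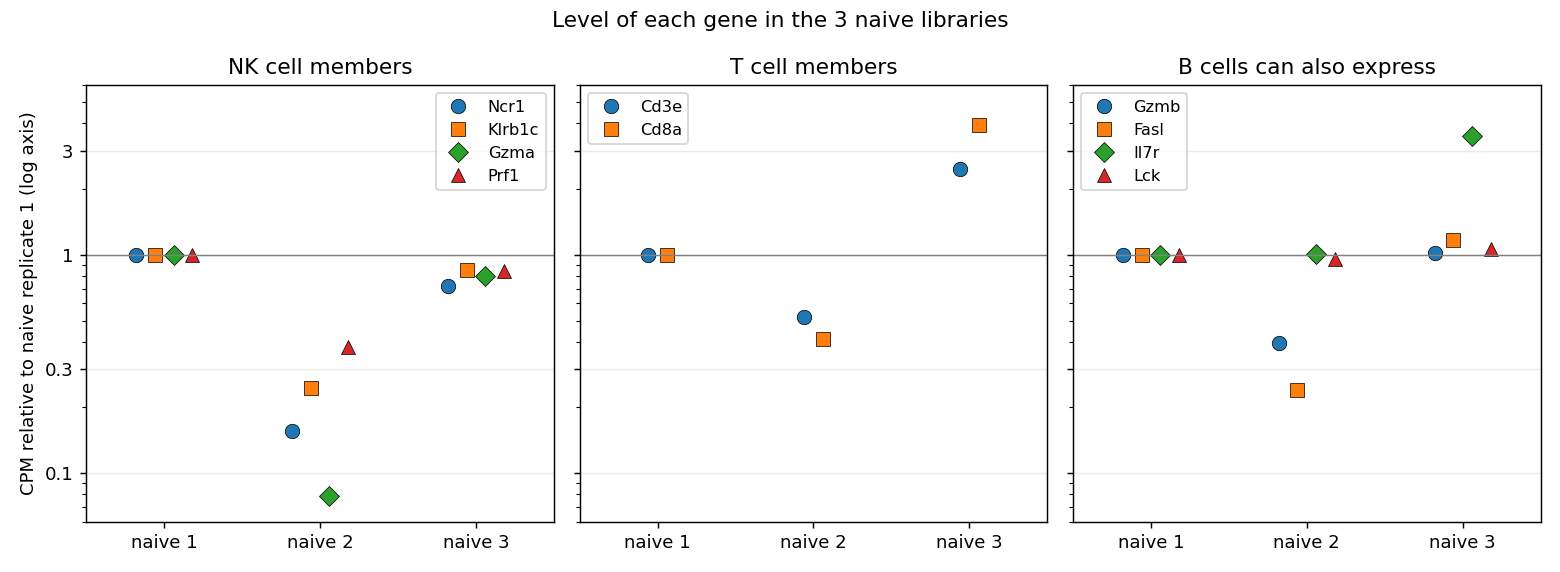
CPM of each gene in naive replicates 1 to 3 relative to its own level in replicate 1, on a log axis, for NK genes, T genes and genes that B cells can also express. The NK genes, Cd3e, Cd8a, Gzmb and Fasl drop in replicate 2. Cd3e, Cd8a and Il7r stand well above the other replicates in replicate 3, and Lck stays near 1.

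Other markers split the naive libraries in the same or in another way. Of 29 NK list genes with at least 20 naive counts, 27 were lowest in replicate 2, with 20 highest in replicate 1 and 9 in replicate 3. Of 24 T list genes, 21 were lowest in replicate 2, with 19 highest in replicate 3 and 5 in replicate 1. The shares of all genes with these orders were not computed, so counts of lowest or highest replicates here are descriptions. Macrophage and monocyte markers summed to 30.5 and 30.9 CPM in TLR, 83.5, 69.6 and 97.6 CPM in CpG, and 1190.5, 308 and 162 CPM in naive libraries, and all 12 were highest in naive replicate 1. Basophil and mast cell markers summed to 0 and 0 CPM in TLR, 0.322, 0.0534 and 0.0546 CPM in CpG, and 4.32, 1.70 and 7.05 CPM in naive libraries, and all 7 were at 0 in both TLR libraries. Innate lymphoid cell markers summed to 3.40 and 2.01 CPM in TLR, 2.51 to 3.22 CPM in CpG and 6.81 to 12.4 CPM in naive libraries. In CpG against naive cells 9 of 12 macrophage markers were lower and 1, Itgam, higher. Of the 12, 2 had at most 4 counts in any stimulated library and passed through the naive libraries. Of the other 10, 7 were lower and 1 higher. The part of these markers in the results above was not tested. The 3 basophil and mast cell markers that were tested passed through the naive libraries alone, so no count of calls is read from them. Of 6 plasmacytoid dendritic cell markers, 3 were lower in CpG than in naive cells (Siglech, Klk1 and Pacsin1), 1 was higher (Ccr9, by 1.93 ± 0.34, adjusted p = 0.00153) and 2 were not called (Cox6a2 and Tcf4). Siglech and Klk1 had at most 4 counts in any stimulated library and passed through the naive libraries. Of the other 4 markers, 1 was lower and 1 higher. Siglech had 0 CPM in both TLR libraries, 0.0645, 0 and 0 CPM in CpG libraries and 12.2, 3.76 and 7.99 CPM in naive libraries.

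Other NK genes were read from a list of 30 written with earlier results of these data known, of which 29 were tested. In CpG against naive cells 25 were lower, 3 higher and 1 not called. As with the members, 20 of the 29 had at most 4 counts in any stimulated library and passed the filter through the naive libraries, so that count is a description. Of the other 9 genes, 5 were lower and 3 higher. Il2rb, the interleukin-2 and interleukin-15 receptor beta chain, had 1.78 ± 0.0367 CPM in TLR (n = 2), 1.91 ± 0.201 CPM in CpG and 17.1 ± 8.02 CPM in naive cells (n = 3 each), and fell by 3.16 ± 0.38 in CpG against naive cells (adjusted p = 0.000168). The 3 higher genes were Tbx21, Cd244a and Klrb1f, of which Tbx21 and Cd244a are also known outside NK cells. Tbx21, the gene of the transcription factor T-bet, had 89.4 and 75.4 CPM in TLR, 21.9, 44.9 and 34.1 CPM in CpG, and 8.18, 4.31 and 6.63 CPM in naive libraries. Each group of libraries was separate, and Tbx21 rose by 2.40 ± 0.29 in CpG against naive cells (adjusted p = 0.000168) and by 1.29 ± 0.29 in TLR against CpG cells (adjusted p = 0.00635). Cd244a, the gene of the receptor 2B4, had 6.79 and 4.49 CPM in TLR, 40.1, 34.9 and 17.8 CPM in CpG, and 12.6, 6.31 and 7.05 CPM in naive libraries, and rose by 1.84 ± 0.35 in CpG against naive cells (adjusted p = 0.00233).

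In TLR against naive cells, 25 NK list genes were lower, the same 20 included, and 1, Tbx21, was higher. In TLR against CpG cells 2 were lower and 3 higher of 29, and the higher ones were Tbx21, Ccl5 and Fcgr3. The TLR group has 2 libraries, so no calls are read from fits that leave out either of them. Ccl5, a chemokine of NK and T cells that stimulated B cells and macrophages can also make, had 14.5 and 5.16 CPM in TLR, 0.774, 0.481 and 0.546 CPM in CpG, and 19.8, 4.66 and 17.3 CPM in naive libraries. It fell by 4.54 ± 0.64 in CpG against naive cells (adjusted p = 0.000411) and rose by 4.03 ± 0.67 in TLR against CpG cells (adjusted p = 0.00116). Klrb1f and Fcgr3 were named here after their values were seen.

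Of 22 tested genes of the T cell list, 18 were lower and none higher in CpG against naive cells. Of the 22 genes, 8 had at most 4 counts in any stimulated library and passed through the naive libraries; of the other 14, 11 were lower. The 4 that were not called were Cd8b1, Lat, Ubash3a and Icos, of which Lat, an adaptor that T cells use, was at 3.15 ± 2.05 CPM in TLR (n = 2), 2.17 ± 0.586 CPM in CpG and 3.88 ± 1.85 CPM in naive cells (n = 3 each). Tcf7, a transcription factor of T and innate lymphoid cells, had 2.13 ± 0.777 CPM in TLR, 1.67 ± 0.766 CPM in CpG and 10.4 ± 5.04 CPM in naive cells, and fell by 2.63 ± 0.46 in CpG against naive cells (adjusted p = 0.00143). The list sum was set mainly by Cd2, an adhesion receptor that mouse B cells also carry. Cd2 had 10.4 and 7.43 CPM in TLR, 176, 187 and 136 CPM in CpG, and 243, 254 and 266 CPM in naive libraries. Cd2 fell by 4.22 ± 0.21 in TLR against CpG cells (adjusted p = 2.67e-06), the same direction as Lck, and by 0.61 ± 0.15 in CpG against naive cells (adjusted p = 0.00785). Sh2d2a, an adaptor that binds LCK, was at 15.0 and 14.6 CPM in TLR, 20.6, 33.9 and 18.6 CPM in CpG, and 42.9, 35.9 and 38.7 CPM in naive libraries, and fell in all 3 comparisons. In TLR against naive cells 19 T list genes were lower, the same 8 included, and in TLR against CpG cells 4 were lower and 1, Icos, was higher. These 5 calls dropped to 3 without CpG replicate 2.

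**Figure D4:**
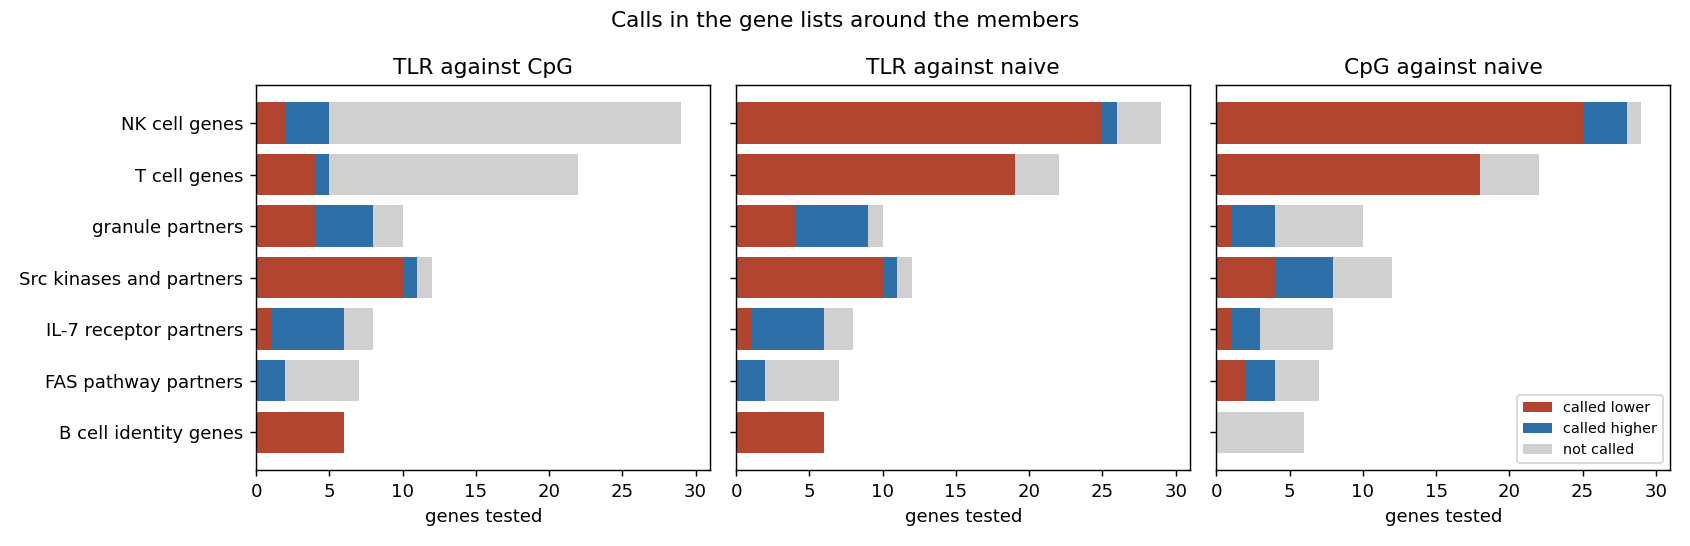
Number of tested genes called lower, called higher or not called in 7 gene lists around the members, for the 3 comparisons. In both comparisons with naive cells most bars of the NK and T lists are lower calls, whereas the lists of granule and interleukin-7 receptor partners hold calls in both directions.

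The granule machinery that granzymes and perforin need took no single direction. Of 10 tested partner genes, 1 was lower (Ctsc) and 3 higher (Rab27a, Stx11 and Serpinb9) in CpG against naive cells, and 4 were lower and 4 higher in TLR against CpG cells. The 4 calls of the first comparison dropped to 1 without naive replicate 2 or 3, and to 2 without CpG replicate 2. Ctsc, whose product cathepsin C activates granzymes, had 144 ± 1.84 CPM in TLR (n = 2), 255 ± 9.06 CPM in CpG and 316 ± 25.5 CPM in naive cells (n = 3 each). It fell by 0.31 ± 0.10 in CpG against naive cells (adjusted p = 0.0320) and by 0.82 ± 0.12 in TLR against CpG cells (adjusted p = 0.000494). Serpinb9, the inhibitor of granzyme B that protects the cells carrying it, had 71.6 and 75.7 CPM in TLR, 12.7, 15.7 and 24.8 CPM in CpG, and 12.8, 8.16 and 10.8 CPM in naive libraries. Serpinb9 rose by 2.05 ± 0.26 in TLR against CpG cells (adjusted p = 0.000262), in libraries where Gzmb had no count. The proteoglycan gene Srgn, whose product packs granule contents in many blood cells, rose by 0.53 ± 0.17 in TLR against CpG cells (adjusted p = 0.0364).

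Partners of LCK mostly shared its direction in TLR cells. Of 12 Src kinases and receptor-proximal genes, 4 were lower and 4 higher in CpG against naive cells, and 10 were lower and 1 higher, Fyn, in TLR against CpG cells. The median there was -1.12 on the log2 scale against -0.02 over all tested genes. Syk, the tyrosine kinase downstream of the B cell receptor, had 1048 ± 33.7 CPM in TLR (n = 2), 3092 ± 252 CPM in CpG and 1633 ± 208 CPM in naive cells (n = 3 each), and fell by 1.56 ± 0.16 in TLR against CpG cells (adjusted p = 6.93e-05). Csk, the kinase that holds Src kinases inactive, fell by 0.68 ± 0.14 in TLR against CpG cells (adjusted p = 0.00403). Fyn, another Src kinase, was named after its values were seen, with 247 and 281 CPM in TLR, 185, 161 and 206 CPM in CpG, and 97.0, 71.5 and 80.5 CPM in naive libraries. It rose by 0.52 ± 0.16 in TLR against CpG cells (adjusted p = 0.0246), the opposite direction to Lck.

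Partners of the interleukin-7 receptor took no single direction. Of 8 tested genes, 1 was lower (Stat5b) and 2 were higher (Jak3 and Bcl2) in CpG against naive cells, where Il7r rose, and 1 was lower (Jak3) and 5 were higher in TLR against CpG cells, where Il7r fell. Jak3, the kinase bound to the common gamma chain, thus had the direction of Il7r in both comparisons, rising by 0.82 ± 0.14 in CpG against naive cells (adjusted p = 0.00148) and falling in TLR against CpG cells (-1.02 ± 0.17, adjusted p = 0.00104). With RLE factors 5 of these genes were called in CpG against naive cells. Il2rg, the common gamma chain that pairs with it, had 173 ± 0.633 CPM in TLR (n = 2), 218 ± 24.9 CPM in CpG and 276 ± 36.1 CPM in naive cells (n = 3 each) and was not called in CpG against naive cells (adjusted p = 0.0574). Stat5a, a transcription factor that the receptor activates, had 706 and 557 CPM in TLR, 57.5, 72.9 and 60.6 CPM in CpG, and 58.5, 51.7 and 51.5 CPM in naive libraries. Stat5a rose by 3.31 ± 0.15 in TLR against CpG cells (adjusted p = 2.67e-06), while it was not called in CpG against naive cells (adjusted p = 0.178). Bcl2, a survival gene that interleukin-7 sustains in lymphocytes, rose by 0.90 ± 0.13 in CpG against naive cells (adjusted p = 0.000511).

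On the receiving side of FASL, 2 of 7 FAS pathway genes were lower (Tnfsf10 and Bid) and 2 higher (Casp8 and Tnfrsf10b) in CpG against naive cells, and 2 were higher and none lower in TLR against CpG cells (Cflar and Tnfrsf10b). Only 1 of the 2 was called in TLR against CpG cells without CpG replicate 1, CpG replicate 2 or naive replicate 2. Casp8, the caspase that FAS activates first, had 156.8, 166.8 and 156.2 CPM in CpG libraries, against 114.6, 122.8 and 121.8 CPM in naive libraries. It rose by 0.42 ± 0.11 on the log2 scale in CpG against naive cells (adjusted p = 0.0123), and the groups did not overlap. Cflar, which blocks caspase activation by FAS, rose by 0.52 ± 0.17 in TLR against CpG cells (adjusted p = 0.0338).

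PMA with ionomycin is a standard stimulus of T and NK cells, so genes that those cells induce with it were read in the TLR libraries. Of a list of 14, 7 passed the filter, of which 4 were higher and 2 lower in TLR against CpG cells. Il2ra, the interleukin-2 receptor alpha chain that activated B cells also carry, had 307 and 296 CPM in TLR, 49.1, 111 and 80.6 CPM in CpG, and 5.37, 4.91 and 7.05 CPM in naive libraries. It rose by 1.91 ± 0.27 in TLR against CpG cells (adjusted p = 0.000461). Nr4a1, an immediate early gene of antigen receptor signalling, rose by 1.87 ± 0.18 in the same comparison (adjusted p = 5.12e-05). The 7 genes that did not pass the filter had at most 9 counts in either TLR library, and 4 of them are named after their values were seen. The T cell cytokine and ligand genes Il2 and Cd40lg were at 6 and 5 counts over the TLR libraries, against 7 and 3 over the CpG libraries. Csf2, the gene of a cytokine that many activated cells make, had 1 and 9 counts in TLR libraries against 0, 1 and 1 in CpG libraries, 7.09-fold higher from counts (95% exact counting interval 1.51 to 66.6). Tnfsf11, the gene of the cytokine RANKL, had 0 and 6 counts in TLR libraries against 0, 1 and 0 in CpG libraries, 8.51-fold higher (interval 1.03 to 392). Most of the TLR counts of both genes came from replicate 2, and neither was tested across libraries.

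For each gene, the genes with the most similar pattern were sought by Pearson's r of log2 CPM over the 8 libraries, among 11706 or 11707 genes. The 8 libraries form 3 separate groups, so r mostly reflects group differences and is given as a description. The genes most like Ncr1, Klrb1c and Gzma were genes of NK receptor families, Gzmb, Gzma or Ncr1, with r of 0.999 to Klra13-ps for Ncr1, 0.994 to Klri2 for Klrb1c and 0.999 to Klra4 for Gzma. Gzmb was most like Klri2 (0.999), Car1 (0.996) and Siglech (0.995), and Fasl was most like Il2rb, Klra4 and Gzma (0.982, 0.982 and 0.981). Prf1 was most like Oard1 (0.969), Arl4c (0.967) and March7 (0.967), none of which was near 0 in the stimulated libraries. Cd3e was most like Zfp78 (0.993), Fbxl8 (0.989) and Skap1 (0.977), and Cd8a most like Dusp1 (0.966), Klre1 (0.960) and Gm14321 (0.959). Lck was most like Tmprss13 (0.993), Cyp2d22 (0.992) and Gpc2 (0.989). Il7r was most like Fmn2 (0.978), March3 (0.967) and Selenot (0.962), all 3 with their highest group mean in CpG cells. The Klra genes are a family of close copies, and reads that map to several of them were not counted, so their levels are uncertain.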

How the data were processed

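Polyadenylated RNA of 8 B cell libraries was sequenced; per the labels' protocols, a strand-specific kit was used. The authors deposited unnormalised counts for each gene; file names state unstranded counting. The submitters' processing notes list STAR, HTSeq and edgeR, and build mm9. Versions and annotation release are not given in the sources used here. Each file held 37583 identifiers and 5 summary lines, left out of all tests (not uniquely aligned 14.7% to 50.2%, no feature 7.84% to 15.0%, ambiguous 1.29% to 2.15% of all lines). Symbols came from GENCODE M21, where 32860 identifiers were found; the remaining 4723 hold up to 1.01% of any library's counts. Genes overlapping the members' exons there (Gm44511 with Klrb1c, Gm48719 antisense to Cd3e, Mir8119 with Lck) have no line in these count tables, so reads from them cannot be told apart from the members'.

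Counts were tested with edgeR 4.0.16 under R 4.3.3: filterByExpr kept 13964 genes, TMM gave scaling factors, and 1 quasi-likelihood model held all 8 libraries, with group as its term. Calls are at an adjusted p below 0.05 (Benjamini-Hochberg over all tested genes). SEs were obtained as log2 fold change over root F. For groups at 0, folds are bounds computed from 3 counts summed across the group; for groups with 1 to 3 counts they are count ratios with exact 95% limits. On simulated data for CpG against naive cells with 13964 genes, 80 of 100 genes changed by a log2 of 2 and 50 of 100 changed by 1 were recovered, with 7 false calls.

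Members, lists and motifs were chosen with earlier results of these data known. Genes named are the members, the 4 highest genes of each list by mean CPM (not all are printed), list members called where 4 or fewer were called, and the 3 genes most like each member with a mean of at least 1 CPM. Genes named to spell out another count of 5 or fewer, or by cell marker lists (Clec9a, Xcr1, Siglech), were named after their values were seen. Of the T list, Trdc was not found by symbol. Some genes are not reported here. Alternatives were: leaving out each library, RCa18 libraries alone, a prefix term, a replicate block, a fit of just the 2 groups compared, a minimum mean of 1 CPM or no filter at all, unscaled library sizes, RLE factors, and DESeq2 1.42.0.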

Additional observations from a re-analysis of the deposited data

How the results depend on the processing

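With each naive or CpG library left out in turn, the count of members called held at 9 in CpG against naive cells. It held at 2 in TLR against CpG cells and at 8 to 9 in TLR against naive cells. With all libraries the counts were 9, 2 and 9, and the calls lost are given with each gene. Fits without a TLR replicate, or with RCa18 libraries alone, hold a single TLR library, so no calls of TLR cells are read from them. They are among the alternatives listed above, which are summed next. Of 400 values for single members over these alternatives, 378 kept direction and side of the threshold, 8 lost the call and 14 turned sign. The sign turned only for differences that were not called in the main fit. For Lck in CpG against naive cells it was -0.0228 with DESeq2, -0.0229 with RLE factors, -0.00541 with library size alone, -0.000823 without a filter, -0.00704 with a mean of at least 1 CPM and -0.146 with RCa18 libraries, and between -0.14 and 0.20 with a library left out. For Il7r in TLR against naive cells it was 0.23 with the prefix as a term and between -0.32 and 0.85 with a library left out. The causes were not tested.

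With a mean of at least 1 CPM, fewer genes are tested, and 8 T and 16 NK list genes were called in CpG against naive cells, and 8 and 14 in TLR against naive cells. With RCa18 libraries alone, TLR against naive cells gave 11 T and 16 NK list genes, and TLR against CpG cells 3 T list genes, as did a fit of only the 2 groups compared. With a library left out, T list calls ranged from 2 to 5 and NK list calls from 3 to 6 in TLR against CpG cells, where calls over all genes ranged from 3575 (without TLR replicate 1) to 5630, against 5417 with all libraries. The summed CPM of the 4 genes that B cells can also express was 25.8 in TLR cells with RLE factors, against 26.2. The cause of the RLE difference was not tested.

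The replicate numbers were not taken as pairs: same-numbered libraries of CpG and naive cells correlated at 0.160, 0.104 and 0.00359, those of TLR and CpG cells at 0.326 and 0.297, and those of TLR and naive cells at 0.127 and 0.0250, and not every library correlated best with its own number. With the replicate number as a block, 6665, 5541 and 8602 genes were called, against 6347, 5417 and 8551 without it, Lck in CpG against naive cells was -0.0104, Il7r in TLR against naive cells was 0.78 and was called higher (adjusted p = 0.0209), and Cd8a in TLR against naive cells was no longer called (adjusted p = 0.0569). No change is measurable for genes with 3 or fewer counts in both groups, which leaves out 6 of the 10 genes in TLR against CpG cells, and Cd3e had 4 counts in CpG and 0 in TLR libraries.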
